A study of Mus musculus with 26 samples.

Results

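Tubulins are the subunits of microtubules, the hollow filaments along which hepatocytes move vesicles, organelles and secretory cargo. An α-tubulin and a β-tubulin join into a heterodimer that adds to or leaves the filament end, and each class is encoded by several isotype genes whose products mix in the same filament. The cell also adjusts tubulin mRNA to the amount of free tubulin, through a factor encoded by Ttc5 that recognises nascent tubulin on the ribosome. The question here was whether the time-of-day difference of 1 of these genes, the β-tubulin Tubb2a, was shared by 8 other tubulin genes measured in the same livers.

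The 9 genes were the β-tubulins Tubb2a, Tubb2b, Tubb5 and Tubb6 and the α-tubulins Tuba1a, Tuba1b, Tuba1c, Tuba4a and Tuba8. They were 9 of 22322 gene symbols present in every RNA-seq table, each represented by its best expressed transcript. Only Tubb5 had more than 1 transcript. Tubb2a was selected on its measured difference between CT12 and CT0 in the control livers of the Bmal1 experiment, so members' values from that contrast are given below as a description, with no test, and Tubb2a is given no p in any contrast that contains those livers. The other 8 genes were then taken as its relatives.

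RNA was sequenced from the livers of 20 mice of 8 weeks of age, all kept in darkness for 2 days and killed at circadian time 12 (CT12) or circadian time 0 (CT0, the hour at which the lights had come on). The Bmal1 experiment had 3 livers each of mice labelled liver-specific Bmal1 knockout at CT12 and at CT0 and of wild-type control mice at CT12 and at CT0. Bmal1, listed under the symbol Arntl, encodes the activator that binds E-box sequences with CLOCK. The Nr1d1 experiment had 2 livers each of mice labelled Nr1d1 knockout at CT12 and CT0 and of wild-type mice at CT12 and CT0. Nr1d1 encodes REV-ERBα, a repressor of Bmal1 transcription. The controls are labelled C57BL/6. The sources used here do not name the Cre driver, the deleted exons or any allele that the controls share with the mutants.

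Levels are in RPKM, which divides the reads of a transcript by its length and by the depth of the library. The RPKM of all genes summed to between 432657 and 479396 in the Bmal1 libraries, to between 588418 and 875424 in replicate 1 of the Nr1d1 experiment and to between 2099302 and 2211054 in its replicate 2, the only libraries labelled paired-end. Levels were therefore compared within a replicate of that experiment and never between the replicates. The targeted genes did not follow the labels throughout. Arntl had 3.59 to 4.37 RPKM in livers labelled Bmal1 knockout at CT12, against 0.68 to 1.26 RPKM in controls, and 5.73 to 7.45 RPKM at CT0, against 15.7 to 16.3 RPKM in controls. Nr1d1 had 11.1 and 28.4 RPKM in livers labelled Nr1d1 knockout at CT12, against 3.45 and 33.4 RPKM in controls, and 6.1 and 32.9 RPKM at CT0, against 0.374 and 22.0 RPKM in controls, replicate 1 first. RPKM over a whole transcript does not show the loss of a few exons, and the groups are called by their labels below. All 10 hepatocyte marker genes were measured above the filter in both experiments. In bulk liver, fewer cells of a type and less RNA per cell cannot be told apart.

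The promoters of 3 genes are shown, those of Tubb2a and Tubb5, which had the largest time differences in Bmal1 controls on the log2(RPKM + 0.5) scale, and that of Tuba8, which differed most by genotype among the genes tested. They are the 250 bases before the RefSeq start site, on the strand of the gene, in build GRCm38.p6, while the RPKM tables were made on mm9. RefSeq windows were used for 7 of the 9 genes, all but Tubb2b and Tubb6. Capitals mark matches to 6 motifs searched on both strands over 250 bases before and 50 after the start: the E-box CACGTG, the D-box TTATGTAA, the REV-ERB/ROR core AGGTCA, the cAMP response element TGACGTCA, the TATA box TATAAA and the CCAAT box CCAAT. No match overlapped another.
Tubb2a, chr13:34078009-34078258, minus strand: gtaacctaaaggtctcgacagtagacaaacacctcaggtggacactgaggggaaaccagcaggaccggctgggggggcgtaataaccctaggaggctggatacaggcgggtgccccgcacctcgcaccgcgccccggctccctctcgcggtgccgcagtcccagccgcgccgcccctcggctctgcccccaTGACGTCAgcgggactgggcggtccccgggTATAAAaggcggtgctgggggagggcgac
Tubb5, chr17:35838302-35838551, minus strand: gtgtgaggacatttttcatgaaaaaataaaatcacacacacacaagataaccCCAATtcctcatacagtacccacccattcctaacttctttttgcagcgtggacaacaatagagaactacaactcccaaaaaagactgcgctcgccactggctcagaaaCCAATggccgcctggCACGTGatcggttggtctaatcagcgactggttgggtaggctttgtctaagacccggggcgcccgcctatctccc
Tuba8, chr6:121210484-121210733, plus strand: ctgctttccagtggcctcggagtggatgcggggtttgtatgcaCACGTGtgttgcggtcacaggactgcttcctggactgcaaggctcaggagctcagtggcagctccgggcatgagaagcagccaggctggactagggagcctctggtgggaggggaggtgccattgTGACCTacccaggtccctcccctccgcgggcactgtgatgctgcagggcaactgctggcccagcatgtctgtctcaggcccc

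The Tubb2a window held TGACGTCA, starting 59 bases before the start site, and TATAAA, starting 29 bases before it. Of all 32851 promoter windows of this length, 1.79% held the first and 13.6% the second. The Tubb5 window held CACGTG, starting 75 bases before the start, with CCAAT boxes starting 90 and 198 bases before it. Tuba8 held CACGTG starting 207 bases before the start, and AGGTCA on the opposite strand, which is read as TGACCT here, 82 bases before it. An E-box was present in 7.15% of all windows, AGGTCA in 16.3% and CCAAT in 37.4%. Tuba1a and Tuba1c had 1 CCAAT box each, Tuba1b and Tuba4a had none of the 6 motifs, and the D-box, found in 0.938% of all windows, was in none of the 7. These are matches of letters, not sites of binding.

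Tubb2a encodes a class II β-tubulin. In the 3 livers labelled Bmal1 knockout it had 47.5, 45.4 and 56.1 RPKM at CT12 and 124, 55.5 and 62.9 RPKM at CT0. In the 3 control livers it had 4.66, 4.26 and 7.86 RPKM at CT12 and 80.4, 77.7 and 50.9 RPKM at CT0. The control livers at CT12 lay below all other livers, while the other 3 groups overlapped. Group means were 49.7 ± 5.66 RPKM in livers labelled knockout at CT12 and 80.9 ± 37.8 RPKM at CT0, against 5.59 ± 1.98 RPKM in controls at CT12 and 69.7 ± 16.3 RPKM at CT0 (SD, n = 3 each). On the log2(RPKM + 0.5) scale the CT12 minus CT0 difference was -0.61 ± 0.29 (SE) in livers labelled knockout, against -3.54 ± 0.29 in controls. The first of these can be tested, and it did not pass (limma, adjusted p = 0.285). At CT12, Tubb2a was 8.88-fold as high in livers labelled knockout as in controls by the group means, and at CT0 1.16-fold. Its CT0 mean in livers labelled knockout leaned on replicate 1, which also had the highest levels of Tubb2b, Tuba1a, Tuba1b, Tuba1c, Tuba4a, Tuba8 and Tubb6 in that group, and not of Tubb5.

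**Figure D1:**
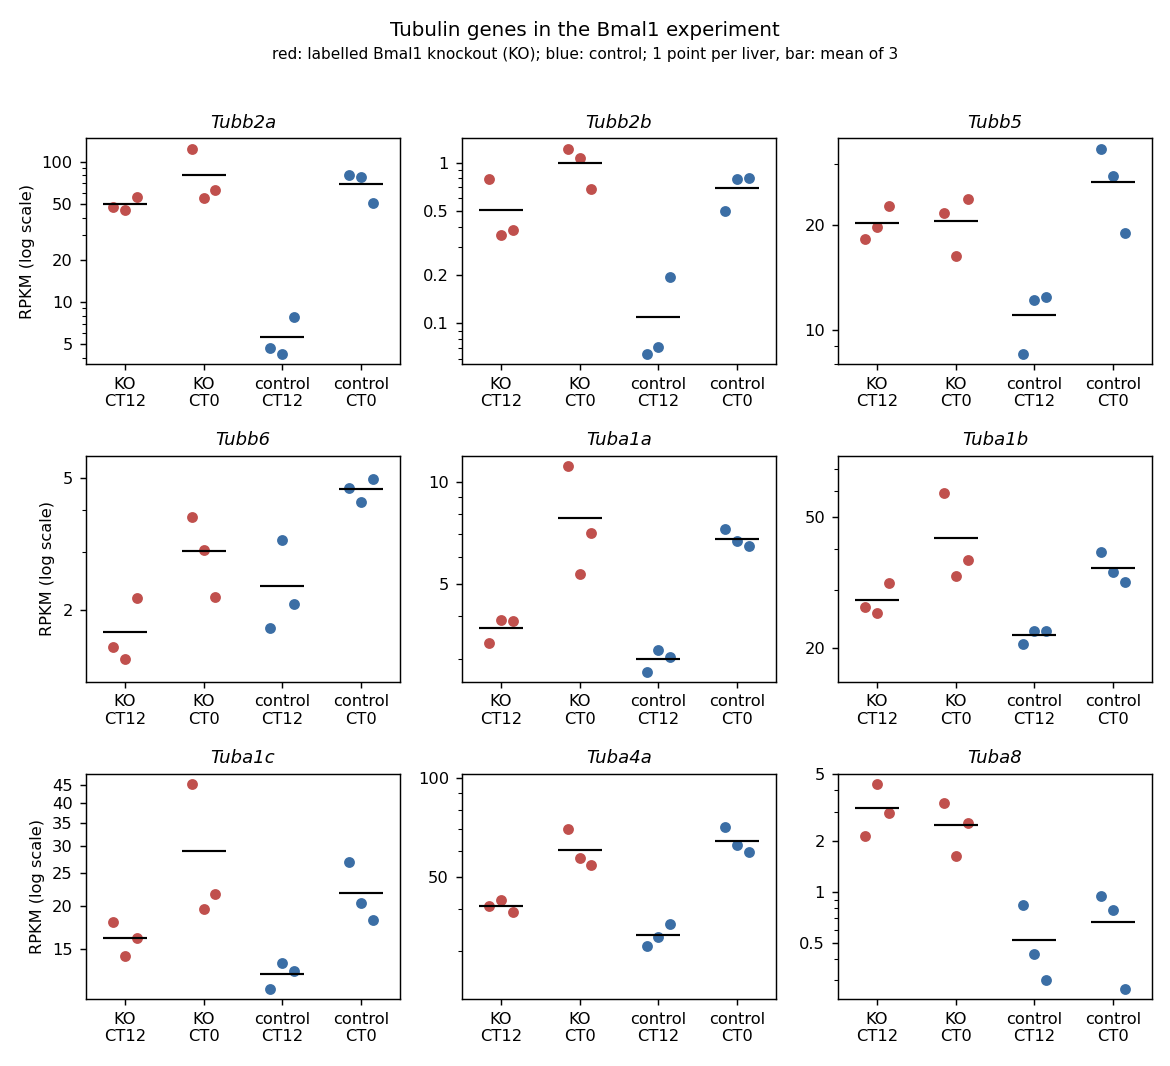
RPKM (log scale) of each tubulin gene in the 12 livers of the Bmal1 experiment, with livers labelled knockout (KO) in red, controls in blue, 1 point per liver and a bar at the mean of 3. Tubb2a in controls at CT12 sits between 4.26 and 7.86 RPKM and the other 9 livers sit between 45.4 and 124 RPKM, while Tuba8 separates by genotype.

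Other β-tubulins also had lower values at CT12 than at CT0 in control livers. Tubb5, the class I isotype made in most cells, had 18.2, 19.8 and 22.7 RPKM in livers labelled Bmal1 knockout at CT12 and 21.6, 16.3 and 23.8 RPKM at CT0. It had 8.54, 12.2 and 12.4 RPKM in controls at CT12 and 33.1, 27.6 and 19.0 RPKM at CT0. As for Tubb2a, the controls at CT12 were the lowest group and did not overlap any other. The CT12 minus CT0 difference was -0.01 ± 0.21 (log2, SE) in livers labelled knockout, with adjusted p = 0.982 in limma, and -1.21 ± 0.21 in controls. At CT12, Tubb5 was higher in livers labelled knockout than in controls, by 0.85 ± 0.21 on the log2 scale (limma adjusted p = 0.0231), or 1.83-fold by the means. That call was lost without control CT12 replicate 1 (adjusted p = 0.0844 in limma), without knockout CT12 replicate 2 (0.0607) or without knockout CT12 replicate 3 (0.0821). The difference between the time effects of the genotypes was 1.2 ± 0.29 (log2) and was not called (limma adjusted p = 0.0821). Without control CT0 replicate 3 it was 1.42 and was called (limma adjusted p = 0.0315).

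Tubb2b, the class II paralog of Tubb2a known mainly from neurons, was near the lower limit of this experiment. It had 0.794, 0.354 and 0.381 RPKM in livers labelled Bmal1 knockout at CT12 and 1.22, 1.06 and 0.681 RPKM at CT0. In controls it had 0.0645, 0.0709 and 0.194 RPKM at CT12 and 0.496, 0.793 and 0.801 RPKM at CT0. These values rest on few reads. Reads recovered from the RPKM steps (relative to 1 unknown factor that all libraries share) summed to 41 in livers labelled knockout at CT12 and 79 at CT0, against 9 in controls at CT12 and 73 at CT0. The groups fell in the same order as for Tubb2a, and controls at CT12 overlapped no other group. That order is uncertain, because reads of Tubb2a may have been counted for Tubb2b, as set out below. Tubb2b was 0.71 ± 0.22 higher (log2) in livers labelled knockout than in controls at CT12, which was not called (limma adjusted p = 0.0614). The added 0.5 RPKM understates this difference, since the group means differed 4.64-fold. At a pseudocount of 0.1 the difference was called (1.52, limma adjusted p = 0.0255). Tubb2b averaged 0.576 RPKM over the Bmal1 libraries, just above the filter of 0.5 RPKM. It passed that filter only through the groups other than controls at CT12, which averaged 0.11 RPKM. Nothing is therefore read from these tests of Tubb2b. By the group means, Tubb2b in controls was 6.34-fold below CT0 at CT12, and Tubb5 2.4-fold below.

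Tubb6, the class V isotype, had 1.54, 1.42 and 2.17 RPKM in livers labelled Bmal1 knockout at CT12 and 3.82, 3.04 and 2.18 RPKM at CT0. It had 1.76, 3.26 and 2.08 RPKM in controls at CT12 and 4.67, 4.25 and 4.98 RPKM at CT0. Its lowest group was therefore not the controls at CT12 but the livers labelled knockout at CT12. The CT12 minus CT0 difference was -0.66 ± 0.22 (log2, SE) in livers labelled knockout (limma adjusted p = 0.128) and -0.87 ± 0.22 in controls. The knockout minus control difference was -0.36 at CT12 (limma adjusted p = 0.347) and -0.57 at CT0 (limma adjusted p = 0.252), opposite in sign to the CT12 difference of Tubb2a and of Tubb5.

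The means of Tuba4a, Tuba1a, Tuba1b and Tuba1c were lower at CT12 than at CT0 in both genotypes, as were those of Tubb2a, Tubb2b and Tubb6. Tuba4a was the α-tubulin with the highest RPKM. It had 40.9, 42.6 and 39.3 RPKM in livers labelled Bmal1 knockout at CT12 and 70.1, 57.2 and 54.6 RPKM at CT0. In controls it had 31.0, 33.0 and 36.1 RPKM at CT12 and 71.1, 62.7 and 59.7 RPKM at CT0. The CT12 and CT0 livers did not overlap within either genotype. Tuba4a was lower at CT12 than at CT0 in livers labelled knockout, with a log2 difference of -0.55 ± 0.11 (limma adjusted p = 0.0264), and the difference was -0.94 ± 0.11 in controls.

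Tuba1a, a neuron-rich isotype present at a low level in liver, had 3.33, 3.90 and 3.87 RPKM in livers labelled Bmal1 knockout at CT12 and 11.1, 5.33 and 7.04 RPKM at CT0. In controls it had 2.75, 3.18 and 3.03 RPKM at CT12 and 7.23, 6.67 and 6.47 RPKM at CT0. Here too the times did not overlap within a genotype. The CT12 minus CT0 difference was -0.93 ± 0.19 (log2, SE) in livers labelled knockout, which was called (limma adjusted p = 0.0356), and -1.06 ± 0.19 in controls. Tuba1b, an α-tubulin made in most tissues, averaged 27.9 ± 3.21 RPKM in livers labelled knockout at CT12 and 43.0 ± 14 RPKM at CT0, against 21.9 ± 1.22 and 34.9 ± 3.81 RPKM in controls at CT12 and CT0 (SD, n = 3 each). Tuba1c averaged 16.2 ± 1.76 RPKM in livers labelled knockout at CT12 and 28.9 ± 14.3 RPKM at CT0, against 12.7 ± 1.09 and 21.9 ± 4.52 RPKM in controls at CT12 and CT0. In livers labelled knockout their time differences were -0.58 ± 0.18 and -0.72 ± 0.26 (log2) and were not called (limma adjusted p = 0.113 for Tuba1b and 0.158 for Tuba1c).

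Of all 9 tubulin genes, 2 were called lower at CT12 than at CT0 in livers labelled Bmal1 knockout, both α-tubulins, where 0.988% of the 11439 genes tested were called lower and 1.90% in either direction. At an unadjusted p under 0.05 there were 6, among them no Tubb2a and no Tubb5. Tubb2a, with a log2 difference of -0.61, had an unadjusted limma p of 0.0612, and Tubb5 had 0.956. The share of all genes at that unadjusted threshold is not given, so nothing is read from this count or from the unadjusted counts below. Both calls depended on the setting and on single livers. With only the groups compared in the fit neither was called (limma adjusted p = 0.144 for Tuba1a and 0.102 for Tuba4a), and Tuba1a was also lost with no filter on RPKM (0.0644). Tuba1a was not called when any 1 of the 3 livers labelled knockout at CT12, knockout CT0 replicate 3, or control CT0 replicate 2 or 3 was left out, with limma adjusted p from 0.0515 to 0.114. Tuba4a was not called when any 1 of the 3 livers labelled knockout at CT12, or knockout CT0 replicate 1 or 3, was left out, with limma adjusted p from 0.0515 to 0.083. For the genotype by time difference of these α-tubulins no call was made, with values of 0.39 ± 0.15 for Tuba4a (limma adjusted p = 0.328), 0.13 ± 0.28 for Tuba1a (0.902), 0.08 ± 0.25 for Tuba1b (0.936) and 0.02 ± 0.36 for Tuba1c (0.991). A p above the threshold does not show that the time effects were alike in the genotypes.

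Tuba8, a divergent α-tubulin known mainly from testis and muscle, separated the livers by genotype. It had 2.15, 4.38 and 2.93 RPKM in livers labelled Bmal1 knockout at CT12 and 3.35, 1.64 and 2.55 RPKM at CT0. In controls it had 0.836, 0.428 and 0.302 RPKM at CT12 and 0.951, 0.78 and 0.266 RPKM at CT0. All 6 livers labelled knockout were above all 6 controls. At CT12 it was 1.83 ± 0.31 higher (log2) in livers labelled knockout than in controls (limma adjusted p = 0.0029), or 6.04-fold by the means. At CT0 the difference of 1.38 ± 0.31 was not called (limma adjusted p = 0.0505). It was called when knockout CT0 replicate 2 was left out, at 1.61 (limma adjusted p = 0.039), or knockout CT12 replicate 1 or 2 (0.049 and 0.0495). The time difference was 0.27 ± 0.31 in livers labelled knockout (limma adjusted p = 0.682) and -0.17 ± 0.31 in controls. Recovered reads of Tuba8 summed to 287 in livers labelled knockout at CT12 and 228 at CT0, against 53 in controls at CT12 and 83 at CT0.

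Of the 8 genes other than Tubb2a, 2 were called higher in livers labelled Bmal1 knockout than in controls at CT12, where 6.46% of all genes were called higher and 9.68% in either direction. At CT0, 0 of the 8 were called by limma, where limma called 1.62% of all genes, with 2 at an unadjusted p under 0.05 (Tubb6 and Tuba8). Limma-voom on recovered reads called 1 of the 8 there (Tuba8). In the genotype by time comparison 0 of the 8 were called by limma, where limma called 1.31% of all genes, with 2 at an unadjusted p under 0.05 (Tubb5 and Tuba4a). Limma-voom called 0 of the 8 in that comparison. Neither the share of all genes called by limma-voom nor the share at that unadjusted threshold is given. Nothing is read from the limma-voom counts or the unadjusted counts. In the control time contrast, which chose Tubb2a, 10.8% of all genes were called.

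**Figure D2:**
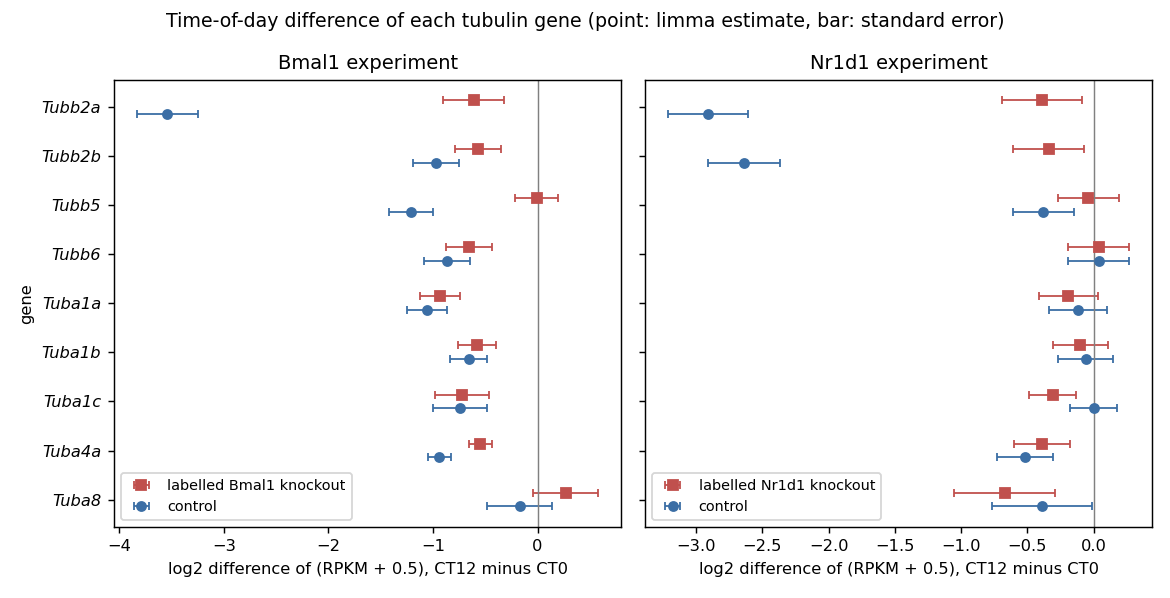
CT12 minus CT0 difference of log2(RPKM + 0.5) for each tubulin gene, with livers labelled knockout as red squares, controls as blue circles and bars for the standard error of the limma fit. In the Bmal1 experiment the controls reach -3.54 for Tubb2a and lie between -1.21 and -0.17 for the other 8, and in the Nr1d1 experiment only the control points of Tubb2a and Tubb2b lie below -1.

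The Nr1d1 experiment, whose controls were not in the contrast that chose Tubb2a, had lower Tubb2a at CT12 than at CT0 in the controls of both replicates. The 9 members were chosen with earlier results of these data known, so its tests may not be independent of that choice. In livers labelled Nr1d1 knockout Tubb2a had 32.5 RPKM at CT12 and 65.2 RPKM at CT0 in replicate 1, and 203 RPKM at CT12 and 175 RPKM at CT0 in replicate 2. In controls it had 11.4 RPKM at CT12 and 79.0 RPKM at CT0 in replicate 1, and 31.4 RPKM at CT12 and 268 RPKM at CT0 in replicate 2. Control livers at CT12 were thus 6.91-fold below those at CT0 in replicate 1 and 8.54-fold below in replicate 2. With replicate as a block, the CT12 minus CT0 difference in controls was -2.91 ± 0.30 (log2, SE) and was called (limma adjusted p = 0.0082). In livers labelled knockout it was -0.39 ± 0.30 (limma adjusted p = 0.591), lower at CT12 in replicate 1 and higher at CT12 in replicate 2.

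The RPKM of Tubb2b followed that of Tubb2a in every library of this experiment. Its values and tests here are uncertain, because they cannot be told apart from a fixed share of Tubb2a reads, as set out below. In livers labelled Nr1d1 knockout Tubb2b had 8.38 RPKM at CT12 and 15.6 RPKM at CT0 in replicate 1, and 26.8 RPKM at CT12 and 23.7 RPKM at CT0 in replicate 2. In controls it had 2.95 RPKM at CT12 and 19.5 RPKM at CT0 in replicate 1, and 4.68 RPKM at CT12 and 33.9 RPKM at CT0 in replicate 2. The order of the 4 livers was the same as for Tubb2a in replicate 1 and in replicate 2. Its control time difference was -2.64 ± 0.27 (limma adjusted p = 0.00829), and that in livers labelled knockout was -0.34 ± 0.27 (limma adjusted p = 0.608).

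At CT12 Tubb2a was 2.84-fold as high in the liver labelled Nr1d1 knockout as in the control in replicate 1 and 6.48-fold in replicate 2. The blocked difference of 2.07 ± 0.30 (log2) had an unadjusted limma p of 0.000134 and was not called after adjustment over 12738 genes (limma adjusted p = 0.129). The genotype by time difference of Tubb2a was 2.52 ± 0.42 and was not called (limma adjusted p = 0.377), nor was any other gene in that comparison. For Tubb2b the blocked values were 1.88 ± 0.27 at CT12 (limma adjusted p = 0.129) and 2.29 ± 0.39 for genotype by time (limma adjusted p = 0.377). At CT0 the knockout minus control differences were -0.44 ± 0.30 for Tubb2a and -0.41 ± 0.27 for Tubb2b (limma adjusted p = 0.873 for both).

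**Figure D3:**
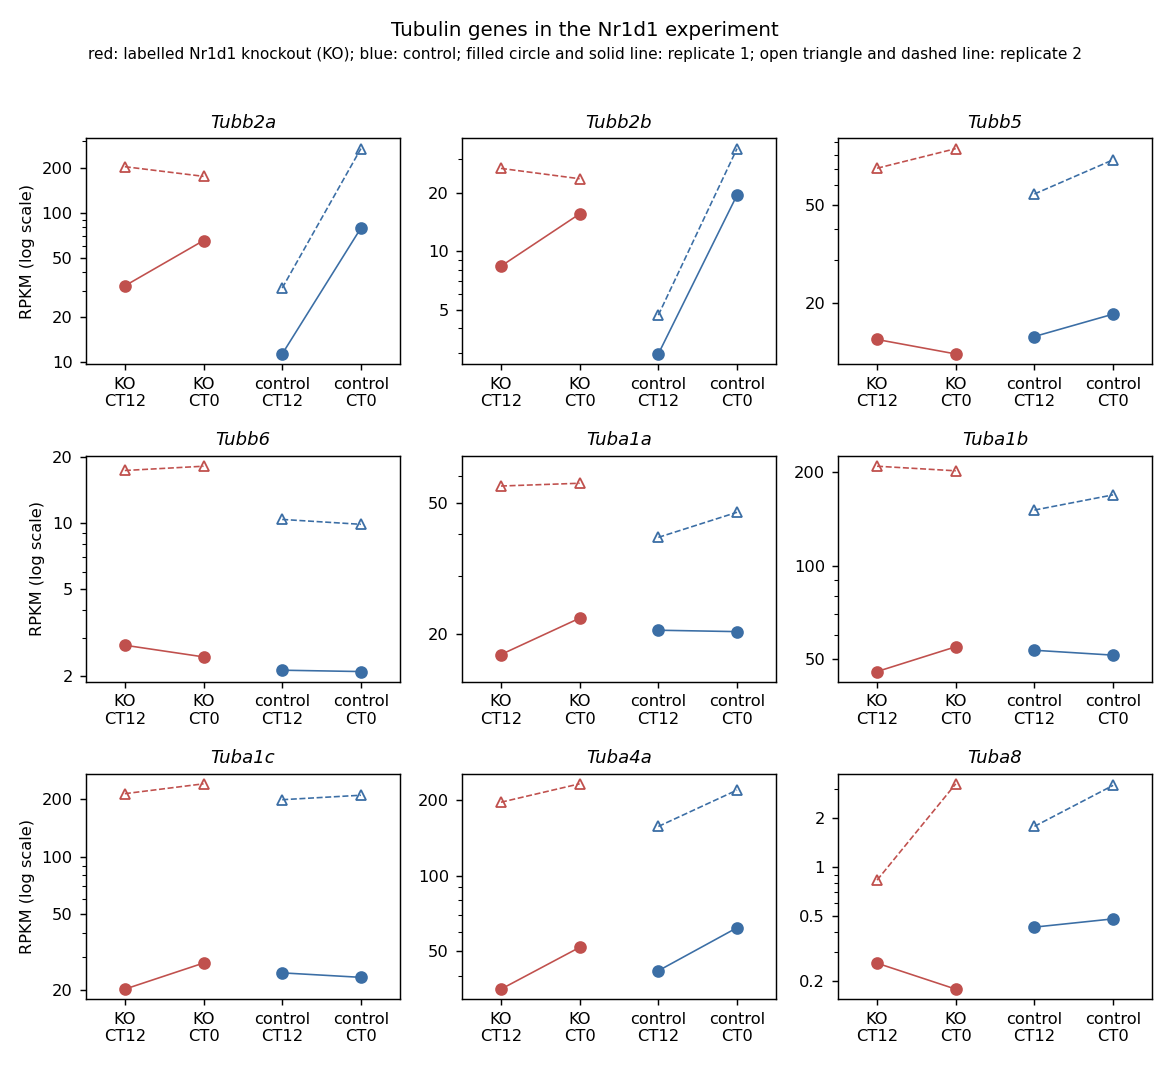
RPKM (log scale) of each tubulin gene in the 8 livers of the Nr1d1 experiment, with livers labelled knockout (KO) in red, controls in blue, replicate 1 as filled circles with solid lines and replicate 2 as open triangles with dashed lines. The control lines of Tubb2a and Tubb2b climb steeply to the CT0 end in both replicates, and the lines of the other genes are nearer to level, except Tuba8 in replicate 2.

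Of the remaining 7 tubulin genes 0 were called by limma for time in the Nr1d1 controls, and 1, Tuba4a, had an unadjusted p under 0.05. Nothing is read from that unadjusted count, since the share of all genes at that threshold is not given. Tubb5 had 14.6 RPKM at CT12 and 18 RPKM at CT0 in replicate 1, and 55.4 RPKM at CT12 and 76.3 RPKM at CT0 in replicate 2, a difference of -0.38 ± 0.23 (log2, limma adjusted p = 0.742). Tuba4a was lower at CT12 in each replicate and in each genotype, with a control difference of -0.52 ± 0.21 (limma adjusted p = 0.574) and -0.39 ± 0.21 in livers labelled knockout (limma adjusted p = 0.427). Tuba1a, Tuba1b and Tuba1c had control differences of -0.12 ± 0.22, -0.06 ± 0.21 and 0.00 ± 0.18, with limma adjusted p from 0.942 to 0.999, and each was above CT0 at CT12 in replicate 1 and below it in replicate 2. In the Bmal1 experiment the means of these 3 α-tubulins were lower at CT12 than at CT0 in both genotypes. Of the 3, only Tuba1a was called for time there, in livers labelled knockout, and that call depended on the setting. The Bmal1 control contrast was not tested. In the Nr1d1 experiment none of the 3 was called for time, and the difference between the experiments was not tested.

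Tuba8 in the Nr1d1 experiment was not higher in livers labelled knockout at CT12. It had 0.257 and 0.832 RPKM in livers labelled knockout at CT12, against 0.428 and 1.78 RPKM in controls, and 0.178 and 3.25 RPKM at CT0, against 0.481 and 3.18 RPKM in controls, replicate 1 first. Tubb6 was higher in the liver labelled knockout than in the control in each replicate and at each time, by 1.17-fold to 1.84-fold. Neither CT12 difference was called, with -0.53 ± 0.38 for Tuba8 and 0.51 ± 0.23 for Tubb6 (limma adjusted p = 1 for both).

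In the Nr1d1 controls 2 of the 9 tubulin genes were called lower at CT12, where 0.181% of 12738 genes were called lower and 0.353% in either direction. They were Tubb2a, selected on the same contrast in the Bmal1 controls, and Tubb2b, whose values here cannot be told apart from a share of Tubb2a reads. The count is therefore not read as a result about the 9 genes together. Those 2 calls were lost when any 1 of the 4 control libraries was left out, with limma adjusted p between 0.0676 and 0.126 for Tubb2a and between 0.0676 and 0.136 for Tubb2b, while the log2 differences stayed between -3.16 and -2.43. A fit that leaves out 1 control library takes the remaining lone library to vary like the other groups. Without the replicate block, in which the replicate's own shift counts as spread, neither gene was called (limma adjusted p = 1 for both). In the other 4 contrasts of this experiment 0 of the 9 were called by limma. At an unadjusted p under 0.05 these held 2 for knockout against control at CT12 and 2 for genotype by time, Tubb2a and Tubb2b each time. They held 0 for knockout against control at CT0 and for time in livers labelled knockout. The share of all genes at that unadjusted threshold is not given, so nothing is read from these counts. Over all genes, 0.0393% were called for knockout against control at CT12, 0.055% for time in livers labelled knockout, and 0% in the other 2 contrasts.

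Tubb2a and Tubb2b are neighbours on mouse chromosome 13 with no protein-coding gene between them, and their coding sequences are very alike, so reads of 1 may have been counted for the other. Tubb2b was 0.617% to 2.47% of the RPKM of Tubb2a across the 12 Bmal1 libraries. In the Nr1d1 experiment it was 23.9% to 25.8% in the 4 livers of replicate 1 and 12.6% to 14.9% in the 4 livers of replicate 2. The share was nearly fixed within a replicate, while Tubb2a itself spanned 11.4 to 79.0 RPKM in replicate 1 and 31.4 to 268 RPKM in replicate 2, and it differed between library sets. Tubb2b in the Nr1d1 experiment is therefore reported as uncertain, since its values cannot be told apart from a fixed share of Tubb2a reads. At 0.617% to 2.47% of Tubb2a, its values in the Bmal1 experiment cannot be told apart from a small share of Tubb2a reads either.

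**Figure D4:**
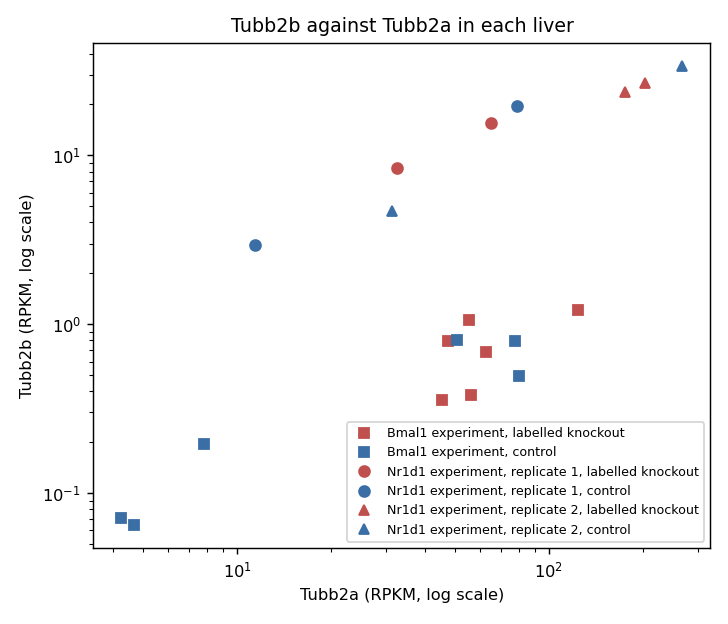
Tubb2b against Tubb2a (RPKM, both axes log) in all 20 livers, with livers labelled knockout in red, controls in blue, squares for the Bmal1 experiment, circles for replicate 1 and triangles for replicate 2 of the Nr1d1 experiment. The 3 sets of libraries lie at separate shares, with Tubb2b at 0.617% to 2.47%, 23.9% to 25.8% and 12.6% to 14.9% of Tubb2a.

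Tuba1b, Tuba1a and Tuba1c lie next to each other on chromosome 15, with no protein-coding gene between them, and are also near-identical in coding sequence. Tuba1a was 12.3% to 20.4% of Tuba1b in the Bmal1 libraries, 37.9% to 40.7% in replicate 1 of the Nr1d1 experiment and 25.9% to 28.4% in its replicate 2. Tuba1c was 51.3% to 77.0% of Tuba1b in the Bmal1 libraries, 44.6% to 50.7% in replicate 1 and 102% to 132% in replicate 2. The ranges of the 3 library sets did not overlap for either pair, and the levels of single members are uncertain for that reason. Within the Bmal1 libraries the Tuba1a share also separated by time, at 12.3% to 15.3% in the livers at CT12 and 16.1% to 20.4% in those at CT0. The sources used here do not state how reads that match several genes were counted.

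Because RPKM is per length, the isotypes can be summed and compared. Reads that match several genes may have been counted for more than 1 of them, so the sums, ratios and shares below are uncertain by an unknown amount. The 8 β-tubulin genes, the 4 studied and Tubb1, Tubb3, Tubb4a and Tubb4b, summed to 111 ± 6.81 RPKM in livers labelled Bmal1 knockout at CT12 and 155 ± 56.7 RPKM at CT0, against 46.6 ± 5.40 RPKM in controls at CT12 and 156 ± 30.3 RPKM at CT0 (SD, n = 3 each). The 8 α-tubulin genes, the 5 studied and Tuba3a, Tuba3b and Tubal3, summed to 91.8 ± 1.70 RPKM in livers labelled knockout at CT12 and 143 ± 39.9 RPKM at CT0, against 71.5 ± 4.37 RPKM in controls at CT12 and 129 ± 14.8 RPKM at CT0. The ratio of summed β to summed α RPKM was 1.21 ± 0.0513 in livers labelled knockout at CT12 and 1.07 ± 0.102 at CT0, against 0.65 ± 0.0383 in controls at CT12 and 1.21 ± 0.143 at CT0. The β sum includes Tubb2a, so in Bmal1 controls the sum, the ratio and the shares below carry the difference that Tubb2a was selected on. The ratio was lowest in the controls at CT12 in the Nr1d1 experiment as well. There it was 0.772 and 0.728 in livers labelled knockout at CT12 and 0.917 and 0.787 at CT0, against 0.505 and 0.412 in controls at CT12 and 1.12 and 0.908 at CT0, replicate 1 first.

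Tubb2a made up 44.6 ± 2.78% of the summed β-tubulin RPKM in livers labelled Bmal1 knockout at CT12 and 51.3 ± 4.90% at CT0, against 11.8 ± 3.03% in controls at CT12 and 44.4 ± 2.56% at CT0. In controls at CT12 the leading β-tubulin was Tubb4b, the class IVb isotype made in most tissues, with 58.8 ± 3.73% of the sum. Its own level was nonetheless lower there than in controls at CT0, at 27.3 ± 1.78 against 54.2 ± 7.51 RPKM. Tubb4b held 35.1 ± 3.47% in livers labelled knockout at CT12 and 31.7 ± 0.70% at CT0, and 35.0 ± 2.40% in controls at CT0. In the Nr1d1 experiment Tubb2a made up 35.4% and 41.3% in livers labelled knockout at CT12 and 45.4% and 30.3% at CT0, against 16.1% and 13.9% in controls at CT12 and 44.7% and 45.5% at CT0, replicate 1 first. Tubb4b made up 36.9% and 34.9% in livers labelled Nr1d1 knockout at CT12 and 33.4% and 47.1% at CT0, against 55.9% and 53.9% in controls at CT12 and 32.8% and 33.8% at CT0. Its share was above that of Tubb2a in every control liver at CT12 of both experiments, and also in livers labelled Nr1d1 knockout at CT12 in replicate 1 and at CT0 in replicate 2. Among α-tubulins in the Bmal1 experiment, Tuba4a held group means between 43.5% and 50.2% of the sum, and Tuba8 3.44 ± 1.26% in livers labelled knockout at CT12 and 1.75 ± 0.34% at CT0, against 0.75 ± 0.451% and 0.503 ± 0.238% in controls at CT12 and CT0.

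**Figure D5:**
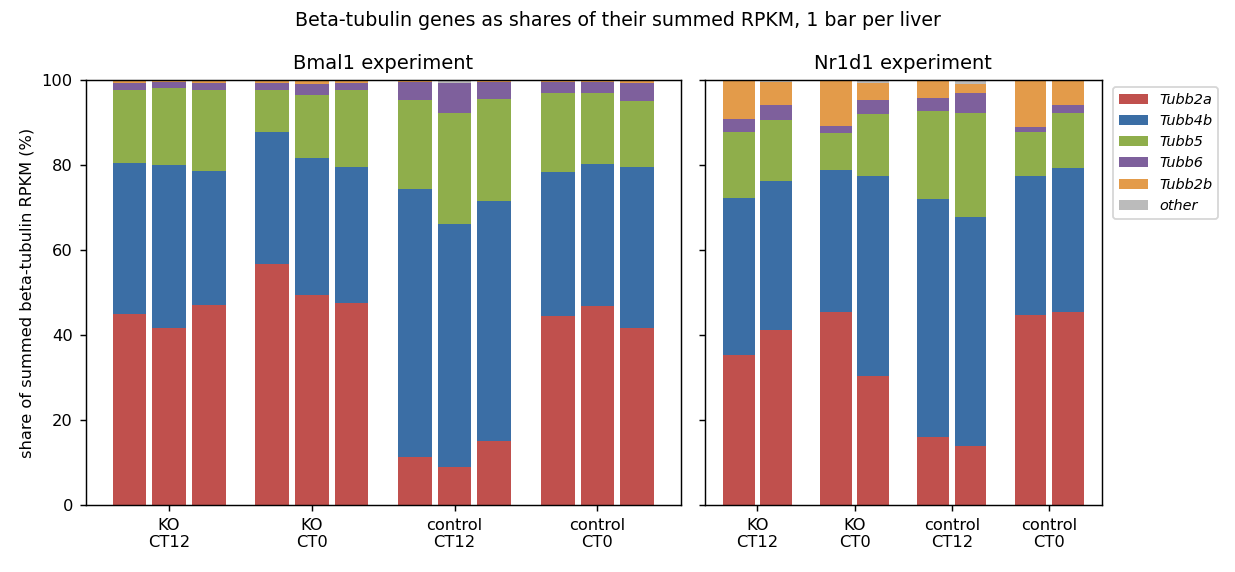
Share of the summed β-tubulin RPKM held by each gene, 1 stacked bar per liver, with livers labelled knockout (KO) left of controls in each experiment. Tubb2a takes 13.9% and 16.1% in the Nr1d1 controls at CT12 and a mean of 11.8% in the Bmal1 controls at CT12, where Tubb4b takes the most.

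Likeness to Tubb2a was the root mean square difference of gene-centred log2(RPKM + 0.5) over the 12 Bmal1 libraries, among 6048 genes with a mean of at least 5 RPKM in both experiments, and it uses the control contrast that chose Tubb2a. Tubb2b, Tubb6 and Tuba8 were below that level in the Bmal1 libraries and were not ranked. The nearest 5 were Insig2 (0.44), an inhibitor of SREBP processing, Chka (0.51), which encodes choline kinase, Spon2 (0.53), an extracellular matrix protein, Ndrg1 (0.63) and Clpx (0.67), a subunit of a mitochondrial protease, where the median gene had 1.53. Over the 8 Nr1d1 libraries, centred within replicate, Chka was the nearest of the 6048 genes to Tubb2a at 0.14 and Spon2 was rank 2 at 0.37, with Insig2 at rank 9, Clpx at rank 14 and Ndrg1 at rank 46. Chka averaged 31.8 ± 6.07 RPKM in livers labelled Bmal1 knockout at CT12 and 51.0 ± 5.22 RPKM at CT0, against 6.39 ± 0.399 RPKM in controls at CT12 and 43.3 ± 6.46 RPKM at CT0 (SD, n = 3 each). Of the 6 tubulin genes ranked in the Bmal1 libraries, Tubb5 was at rank 82, Tuba1a at 94, Tubb4b at 123, Tuba1c at 136, Tuba4a at 168 and Tuba1b at 179. In the Nr1d1 libraries Tubb4b was at rank 123, Tuba4a at 164, Tubb5 at 362, Tuba1a at 424, Tuba1b at 591 and Tuba1c at 876. The unranked Tubb2b, uncertain in those libraries as said above, had a difference of 0.11 from Tubb2a there, below that of Chka, and Tubb6 and Tuba8 had 1.1 and 1.2.

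Of 5 lists of other genes that make, fold, modify, regulate or bind tubulin, 55 genes were tested in the Bmal1 experiment. For knockout against control at CT12, 2 of the 55 were called by limma, which is 3.64%, against 9.68% of all genes. Tcp1, a subunit of the cytosolic chaperonin that folds tubulin, was lower in livers labelled Bmal1 knockout than in controls at CT12, with a log2 difference of -0.48 ± 0.08 (limma adjusted p = 0.00271), and was the 1 gene of the 55 called for genotype by time, at -0.56 ± 0.11 (limma adjusted p = 0.0372). Mapre2, which encodes a microtubule end-binding protein, was lower in livers labelled knockout than in controls at CT12, with a log2 difference of -0.78 ± 0.14 (limma adjusted p = 0.0044). None of the 55 was called by limma for knockout against control at CT0 or for time in livers labelled knockout. In the control time contrast 7 of the 55 passed the same threshold, which is 12.7%, against 10.8% of all genes, and nothing is read from that contrast. As a description, Ttc5, the autoregulation factor named above, had a CT12 minus CT0 difference of -0.63 ± 0.11 (log2) in controls, and Tubb4b had -0.97 ± 0.19. Tubb4b averaged 38.9 ± 2.53 RPKM in livers labelled knockout at CT12 and 48.7 ± 16.7 RPKM at CT0, against 27.3 ± 1.78 RPKM and 54.2 ± 7.51 RPKM in controls at CT12 and CT0. In the Nr1d1 experiment 0 of 60 genes of these lists were called by limma in any contrast. The median log2 difference for knockout against control at CT12 in the Bmal1 experiment was 0.13 over the folding genes, 0.02 over the modifying enzymes and 0.05 over the dynamics genes, against 0.09 over all genes tested.

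Markers of other cell types moved along the same contrasts in the Bmal1 experiment, and their part in the tubulin values was not tested. Summed cholangiocyte markers, of which 4 of 6 passed the filter, were 88.4 to 124 RPKM in livers labelled knockout at CT12 and 93.2 to 152 RPKM at CT0, against 27.2 to 50.0 RPKM and 48.8 to 65.0 RPKM in controls at CT12 and CT0. These ranges separate by genotype, as Tuba8 did. Spp1 made up most of the sum, at 26.5 to 148 RPKM, while Krt19, Krt7, Epcam, Sox9 and Cftr were at most 2.1 RPKM in any liver. Summed hepatocyte markers also separated by genotype, at 30594 to 33475 RPKM in livers labelled knockout at CT12 and 34905 to 38933 RPKM at CT0, against 41115 to 50494 RPKM and 48760 to 54174 RPKM in controls at CT12 and CT0, with 1 of 10, Alb, called lower at each time. Alb was the largest part of that sum, at 14012 to 37868 RPKM. The median log2 knockout minus control difference over the 10 markers was 0.05 at CT12 and -0.02 at CT0. Summed Kupffer cell and macrophage markers were 149 to 255 RPKM in livers labelled knockout at CT12 and 200 to 292 RPKM at CT0, against 139 to 207 RPKM and 228 to 295 RPKM in controls at CT12 and CT0. Summed neutrophil markers were 17.8 to 46.3 RPKM in livers labelled knockout at CT12 and 104 to 219 RPKM at CT0, against 5.94 to 8.80 RPKM and 32.2 to 112 RPKM in controls at CT12 and CT0, with 5 of 7 called lower at CT12 in livers labelled knockout. Summed endothelial markers were 65.3 to 146 RPKM in livers labelled knockout at CT12 and 133 to 144 RPKM at CT0, against 78.1 to 88.0 RPKM and 117 to 142 RPKM in controls at CT12 and CT0. Summed stellate cell markers were 133 to 171 RPKM in livers labelled knockout at CT12 and 184 to 223 RPKM at CT0, against 109 to 125 RPKM and 147 to 203 RPKM in controls at CT12 and CT0. The Kupffer cell, neutrophil, endothelial and stellate cell sums were thus lower at CT12 than at CT0 in controls without overlap. Lymphocyte markers, at 1.11 to 1.55 RPKM in controls at CT12 and 2.03 to 2.63 RPKM at CT0, did not overlap either. Erythroid markers overlapped, at 82.5 to 145 RPKM in controls at CT12 and 117 to 275 RPKM at CT0. Of 12 proliferation genes, 5 were tested and 0 were called by limma in any contrast, and the sums over the list were 4.72 to 8.34 RPKM in livers labelled knockout at CT12 and 7.31 to 10.3 RPKM at CT0, against 6.78 to 9.46 RPKM and 5.31 to 8.12 RPKM in controls at CT12 and CT0.

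In the Nr1d1 controls endothelial markers summed to 133 RPKM at CT12 and 101 RPKM at CT0 in replicate 1, and to 235 RPKM at CT12 and 375 RPKM at CT0 in replicate 2. Kupffer cell and macrophage markers were higher at CT12, at 246 against 154 RPKM in replicate 1 and 672 against 641 RPKM in replicate 2. Stellate cell markers summed to 136 RPKM at CT12 and 110 RPKM at CT0 in replicate 1. In replicate 2 the stellate cell sums were 297 RPKM at CT12 and 343 RPKM at CT0. Neutrophil markers summed to 1.64 RPKM at CT12 and 1.23 RPKM at CT0 in replicate 1, and to 2.43 RPKM at CT12 and 3.37 RPKM at CT0 in replicate 2. Cholangiocyte markers summed to 27.5 RPKM at CT12 and 44.5 RPKM at CT0 in replicate 1 and 141 RPKM at CT12 and 218 RPKM at CT0 in replicate 2. In livers labelled Nr1d1 knockout the cholangiocyte sums were 47.7 RPKM at CT12 and 27.1 RPKM at CT0 in replicate 1. In replicate 2 they were 372 RPKM at CT12 and 241 RPKM at CT0. The other sums of livers labelled Nr1d1 knockout are not given here.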

How the data were processed

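Livers were profiled by RNA-seq, and 20 libraries were used. 6 4C libraries of the series were not used here. The authors deposited RPKM per Ensembl transcript and library. The submitters' processing notes name the build mm9 and the tools bedtools 2.19.1, TopHat2 and, except for replicate 2 of the Nr1d1 experiment, Bowtie. The sources used here do not give the annotation release, the strand setting, the handling of multiply mapped reads or the depth used for scaling. Sample titles gave the groups. 

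The 9 members and all gene lists were chosen with earlier results of these data known. Each gene was represented by its best expressed transcript, by mean log2 value. Differences were tested with limma 3.58.1 in R 4.3.3 (functions lmFit, contrasts.fit and eBayes, with the prior variance following mean expression). The input was log2(RPKM + 0.5), restricted to genes averaging at least 0.5 RPKM in the experiment (11439 and 12738 genes, all 9 members in both). Tests were two-sided, with Benjamini-Hochberg adjustment over all genes of a contrast and a threshold of 0.05. The added 0.5 understates differences of low genes. An experiment's 4 groups shared 1 fit. Errors are standard errors for log2 differences and standard deviations between libraries for RPKM and shares.

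Replicate number was a block in the Nr1d1 experiment, because only replicate 2 is labelled paired-end. Deviations from the group means of same-numbered libraries correlated across genes at 0.82 to 0.88 there. In the Bmal1 experiment these correlations were -0.06 to 0.12, and no block was used. No pair of libraries within an experiment shared more than 0.0045% of its values exactly.

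Whole reads, within a tolerance of 0.05 of a read, were recovered from the RPKM steps for 98.2% of Bmal1 genes and 88.8% of Nr1d1 genes above 0. They summed to 3.38 M to 5.62 M and 4.23 M to 40.19 M per library, up to a common factor and without the unresolved genes. The script was tested on simulated data with known changes. Named genes were all members, the targeted genes, the 5 genes most like Tubb2a and up to 4 called genes per list with the largest change. Of 155 list genes, 153 matched a symbol. Promoter sequences and neighbouring genes were taken from RefSeq (GRCm38.p6). Alternatives were other pseudocounts, no filter, TMM and quantile scaling, summed transcripts, fits of only the groups compared, the block added or removed, each library left out, and, in the Bmal1 experiment, limma-voom on the recovered reads, which was chosen after seeing the data.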

Additional observations from a re-analysis of the deposited data

How the results depend on the processing

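No tubulin value called in either fit changed its direction under any alternative, and of 1270 recomputed values that were not called 63 had the other sign. Tuba8 was higher in livers labelled Bmal1 knockout than in controls at CT12 under all 21 alternatives (limma adjusted p from 0.00206 to 0.0156), and Tubb5 under 18 of 21 (0.01 to 0.0844). The count of 2 in that contrast was 1 to 2 with a library left out, and 3, with Tubb2b, at a pseudocount of 0.1 or in limma-voom on recovered reads. Nothing is read from the call of Tubb2b, which passed the filter only through its higher groups. For knockout against control at CT0 the count of 0 became 1 (Tuba8) at a pseudocount of 1, with TMM factors, with quantile normalization and in limma-voom on recovered reads, and was 0 to 1 with a library left out. For time in livers labelled Bmal1 knockout the count of 2 became 1 with no filter, 0 with only the groups compared and 1 with the replicate block, where Tuba4a was the gene called with no filter and with the block (Tuba1a had adjusted p = 0.0534 in limma with the block), and was 0 to 2 with a library left out. The replicate block changed no other count of calls in the Bmal1 experiment, where the numbers do not pair the livers. For genotype by time in the Bmal1 experiment the count of 0 was 0 to 1 with a library left out. In the Nr1d1 controls the count of 2 became 0 with no filter and 0 with no replicate block, and was 0 to 2 with a library left out. Limma adjusted p over the alternatives was 0.00019 to 1 for Tubb2a and 0.000534 to 1 for Tubb2b there. The other Nr1d1 counts stayed at 0 in every alternative run, with and without the replicate block. The causes were not tested. Depth limits Tubb2b most, with 2 to 35 recovered reads per Bmal1 library, and Tuba8, with 9 to 129.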
